A study of Mus musculus with 12 samples.

Results

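The genes described here are 43 collagens, collagen cross-linking enzymes, matrix glycoproteins and fibroblast markers measured by RNA-seq in mouse female germline stem cells (FGSCs). They were chosen by name as genes that may report RNA of the feeder layer, and every row of the deposited count table whose RefSeq accession maps to one of them was taken. These were 69 of 41388 rows, and 43 of the 24813 genes with a symbol. FGSCs are ovarian cells that were first isolated with an antibody against the germ cell protein MVH and then grown on STO cells, a mouse embryonic fibroblast line whose division had been stopped with mitomycin C. All 4 groups shared the C57BL/6 strain, the STO feeder, a medium with serum, leukemia inhibitory factor, EGF, bFGF and GDNF, and a passage number above 20. KO carried a CRISPR/Cas9 knockout of *Stella* (Dppa3) made with lentiviral guide RNAs and was 1 single-cell clone, and KO-con was its control. Over carried a lentiviral *Stella* transgene under puromycin selection, and Over-con carried the empty lentiviral vector. Each group had 3 libraries. As the KO line was a single clone, what the lost gene does and what is particular to that clone cannot be told apart.

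Fibroblasts build the connective tissue matrix. Fibrillar collagens form its ropes, type IV collagen and its relatives form sheets under epithelia and vessels, and type VI, XII and XVI collagens link fibrils to each other and to cells. Lysyl oxidases cross-link collagen and elastin outside the cell, and glycoproteins and proteoglycans such as fibronectin, fibrillin, tenascin, decorin and biglycan organise the fibrils and bind growth factors. STO cells are fibroblasts, the cell type these genes are best known for. In RNA from a whole culture, a change in the number of fibroblasts and a change in RNA per cell cannot be told apart, and neither can a change in the cultured line itself.

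The libraries held 5611846 to 12866545 counts. Levels are given as CPM, the count of a row scaled to a common library total, with the totals adjusted by TMM factors over all 12 libraries. The floor below which a level is not read, 3 counts in a library, lay at 0.233 to 0.535 CPM of the unadjusted totals. It covers counting error only. *Stella* had 0 counts in each of the 9 libraries outside Over and 347, 371 and 285 counts in Over, so the knockout could not be checked against its control in this table. Of 18 germ cell markers, 13 had at most 10 counts in every library, and 3 of these (*Ddx4*, *Figla* and *Tfap2c*) were at 0 counts in all 12 libraries. *Ddx4*, which encodes MVH, and *Dazl*, with 1 count in all, are defining genes of the labelled cell type, and each is listed with 2 rows. The germ cell list summed to 116 to 141 CPM in KO-con, 81.8 to 121 in KO, 154 to 168 in Over-con and 149 to 163 in Over, with *Ifitm3* at 91.5% of it.

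Promoter sequence is shown for 3 of the genes with the largest changes, because it lets a reader see what lies before the starts of *Tnc* and *Myl9*, which changed in KO, and *Col23a1*, which changed in Over. RefSeq promoter windows (GRCm38.p6) were found for 28 of the 43 genes. The 250 bases before the start were placed on mm9 by an exact match, and 44 bases of *Myl9* inside an annotated mm9 exon were left out. The RefSeq start of *Tnc* lies upstream of the mm9 gene model used for its position here. Capitals mark matches on either strand to 4 promoter motifs. These are the TATA box, searched as TATAAA, the CCAAT box, searched by the letters of its name, the GC box, searched as GGGCGG, and the CArG box, which serum response factor binds. No matches overlapped. The sequences are written 5′ to 3′ on the strand of the gene.
Tnc (chr4:63708050-63708299, minus strand, mm9): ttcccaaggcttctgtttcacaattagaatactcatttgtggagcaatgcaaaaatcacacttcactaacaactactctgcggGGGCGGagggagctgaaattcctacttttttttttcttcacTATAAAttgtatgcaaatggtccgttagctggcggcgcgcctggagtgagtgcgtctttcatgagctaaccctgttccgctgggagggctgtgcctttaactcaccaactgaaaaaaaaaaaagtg
Myl9 (chr2:156600950-156601155, plus strand, mm9): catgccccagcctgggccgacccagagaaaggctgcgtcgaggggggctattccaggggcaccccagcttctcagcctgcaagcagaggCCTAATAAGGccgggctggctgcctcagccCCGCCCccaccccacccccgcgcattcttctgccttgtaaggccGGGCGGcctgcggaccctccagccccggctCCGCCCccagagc
Col23a1 (chr11:51103172-51103421, plus strand, mm9): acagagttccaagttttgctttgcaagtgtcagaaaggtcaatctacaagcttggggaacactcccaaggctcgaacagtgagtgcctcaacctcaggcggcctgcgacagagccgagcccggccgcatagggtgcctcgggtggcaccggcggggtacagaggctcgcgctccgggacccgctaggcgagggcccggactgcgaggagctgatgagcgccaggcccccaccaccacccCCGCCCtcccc
The *Tnc* window held a TATA box from 126 to 121 bases before the start and a GC box from 167 to 162. The *Myl9* window held a CArG box from 161 to 152 bases before the start and 3 GC boxes, and the *Col23a1* window held 1 GC box. Among all 32851 windows of the same length, 1.47% held a CArG box, 12.4% a TATA box, 32.7% a GC box and 33.8% a CCAAT box. None of the 4 motifs was found in the windows of *Col15a1* and *Pdgfra*. A match is a run of letters, and binding was not measured.

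Collagen and matrix RNA was present in all 12 libraries. Together the 43 genes took 0.346 to 0.477% of the counts of a library. The largest shares of the summed level came from *Bgn* (biglycan, a small proteoglycan that binds collagen), *Col1a2* (a chain of type I collagen) and *Tnc* (tenascin-C, a glycoprotein of remodelling matrix). Of the 43 genes, 29 had more than 30 counts in every library. At most 10 counts in every library were found for 7, and 3 of these were at 0 throughout. Per kilobase of annotated exon, the highest mean level over the 12 libraries was that of *Bgn* at 195 CPM per kilobase. It was followed by *Tnc* (69.9), *Col6a1* (65.6), *Col1a1* (56.8), *Col1a2* (47.7), *Loxl1* (36.9), *Col4a2* (25.8) and *Dcn* (25.2). The transcription factors *Twist1* (9.04 CPM per kilobase) and *Twist2* (5.36) and the smooth muscle genes *Tagln* (4.26), *Acta2* (2.73) and *Myl9* (1.56) stood lower.

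Low values were more frequent among the genes listed with 2 or more rows than among those listed with 1 row. Whether the listing of rows or low expression caused this was not tested. Of the 29 genes with 1 row, 24 had more than 30 counts in every library, against 5 of the 14 genes with 2 or more rows. *Sparc*, *Thbs1* and *Pdgfrb* had 0 counts in all 12 libraries, and each of them is listed with 2 rows. *Postn*, with 5 rows, had 1 count in total. *Fn1*, the gene of fibronectin, is listed with 7 rows, of which 6 were at 0 and 1 lay at 10.3 to 21.4 CPM. *Col4a1* and *Col4a2* encode the partner chains of type IV collagen. *Col4a2*, with 1 row, stood at 171 CPM, whereas *Col4a1*, with 2 rows, had 35 counts in the 12 libraries together. *Col18a1*, the collagen from which endostatin is cut, has 2 rows and had at most 7 counts in a library. Over the whole table, genes with 1 row took 95.7% of all counts and made up 41.1% of the named rows. The latter is a share of rows and not of genes. How reads shared by several rows were counted is not stated, so a low value of a gene with several rows is not read as low expression here. *Lum* (lumican, a proteoglycan of collagen fibrils) has a single row and had at most 2 counts in a library. *Fap*, a protease of activated fibroblasts, also with 1 row, lay at 0.627 to 2.64 CPM.

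**Figure D1:**
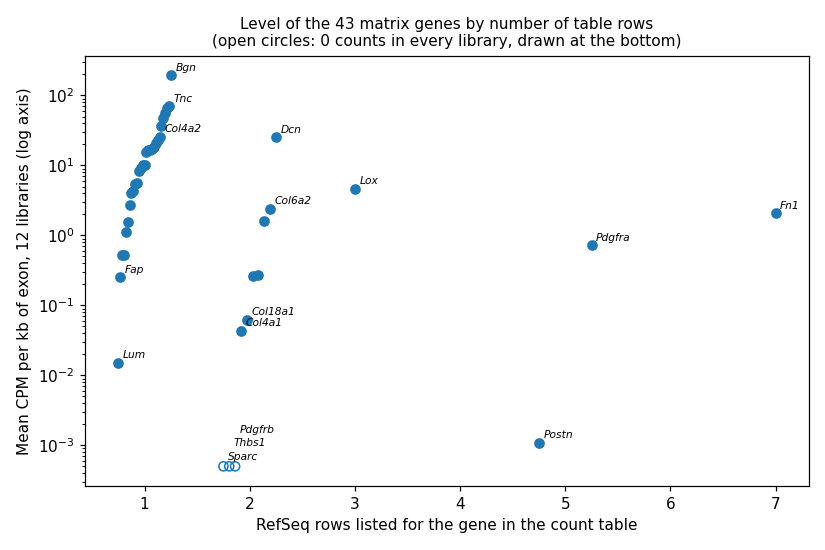
Mean level of each of the 43 genes over 12 libraries (vertical axis, CPM per kilobase of exon, log scale) against the number of RefSeq rows listed for it (horizontal axis, points spread sideways for visibility). Genes with 1 row reach from 0.0151 (*Lum*) to 195 (*Bgn*), and the 3 genes at 0 counts (open circles, drawn at the bottom) all have 2 rows.

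The summed level of the 43 genes, *Tnc* included, was above KO-con in KO and below Over-con in Over, and the lowest and highest sums were those of the 2 controls. It was 3635, 3518 and 3692 CPM in KO-con, 4148, 4510.0 and 3814 in KO, 4526, 4716 and 4650.0 in Over-con and 3888, 3995 and 3862 in Over. No KO library lay at or below a KO-con library, and no Over library reached an Over-con library. The ratio of group means was 1.15 for KO against KO-con, 0.845 for Over against Over-con and 0.781 for KO-con against Over-con. Without *Bgn*, the gene with the most counts, the ratios were 1.17, 0.84 and 0.764. Without *Tnc*, an alternative chosen after seeing the data, they were 1.03, 0.861 and 0.762. The sums without *Tnc* were 3217, 3026 and 3305 CPM in KO-con and 3319.8, 3615 and 2862 CPM in KO, so KO replicate 3 then lay below all KO-con libraries, while the 3 Over libraries stayed below those of Over-con. The 18 other fibroblast markers, which are not among the 43, summed to 243 to 254 CPM in KO-con, 232 to 293 in KO, 307 to 377 in Over-con and 269.7 to 299 in Over. The KO and KO-con ranges of that list overlapped, while Over lay below Over-con, and KO-con below Over-con, without overlap. By the edgeR test described below, 5.83% of all rows tested were higher in KO, 0.883% were lower in Over and 8.19% were lower in KO-con than in Over-con. Of the rows of this list, 1 of 6 was higher in KO, 1 of 7 was lower in Over and 4 of 7 were lower in KO-con than in Over-con. The most abundant of them were *Fgf7*, *S100a4* and *Ogn*, and 5 (*Eng*, *Mfap5*, *Meox1*, *Ly6a* and *Tcf21*) were at 0 counts.

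The summed level of blood cell markers, most of which was *Cpa3*, also differed between the groups. The 16 markers of mast cells and other haematopoietic cells summed to 533 to 607 CPM in KO-con, 1333 to 1442 in KO, 956 to 1039 in Over-con and 854 to 866 in Over. No ranges overlapped, with KO highest and KO-con lowest. By the same edgeR test, 5.83% of all rows were higher and 5.96% lower in KO, 0.766% and 0.883% in Over, and 8.08% and 8.19% between the controls. Of this list's 8 rows tested in KO, 4 were higher and 0 lower. Of 6 rows tested in Over, 1 was higher and 1 lower, and of 6 between the controls 0 were higher and 2 lower. The median log2 fold changes were 0.57, 0.29 and -0.069. *Cpa3*, the mast cell carboxypeptidase, took 79.3% of the sum, followed by *Spi1* and *Ptprc*. Its log2 fold change was 1.55 (adjusted p = 2.62e-09) in KO, -0.30 (adjusted p = 0.0247) in Over and -1.0 (adjusted p = 1.33e-08) between the controls. The mast cell markers *Tpsab1*, *Fcer1a* and *Ms4a2* and the myeloid marker *Itgam* were at 0 counts. Their part in the levels of the matrix genes was not tested.

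**Figure D2:**
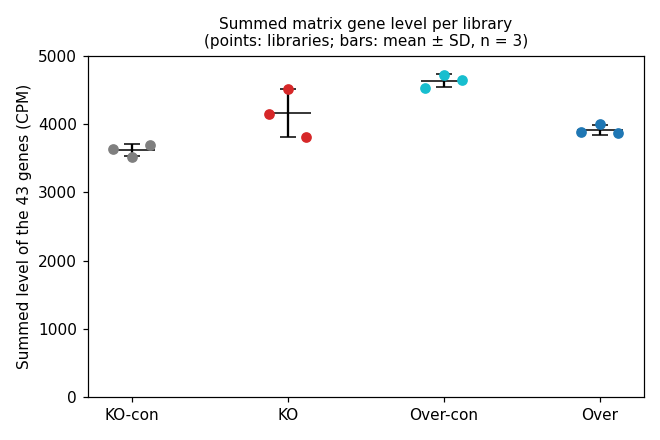
Summed level of the 43 genes (vertical axis, CPM, from 0) in each library of the 4 groups (horizontal axis). Points are libraries and bars are the mean ± SD of 3 libraries, with KO-con lowest at 3615 ± 88.8 CPM and Over-con highest at 4631 ± 96.1 CPM.

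Each row was then tested in edgeR by its quasi-likelihood test, with p-values adjusted by Benjamini-Hochberg over all rows tested. A row passed with an adjusted p under 0.05, and was called when its log2 fold change was also over 1 in size. Of the 43 genes, 36 had a row with enough counts to be tested, in 39 rows, and 25 of the 36 passed in at least 1 test. *Col4a1*, *Col18a1*, *Lum*, *Postn*, *Sparc*, *Thbs1* and *Pdgfrb* were not tested. In KO against KO-con, 5 of 39 rows were higher, 4 were lower and 30 did not pass, and with library totals in place of TMM scaling 6 were higher and 3 lower. Over all 9457 rows, 5.83% were higher and 5.96% were lower. In Over against Over-con, 2 of 39 rows were higher, 5 were lower and 32 did not pass, where 0.766% of all 9401 rows were higher and 0.883% were lower. In KO-con against Over-con, 3 of 38 rows were higher, 15 were lower and 20 did not pass, where 8.08% of all 9321 rows were higher and 8.19% were lower. Rows called in either direction numbered 3 in KO, 2 in Over and 0 between the controls (0 with DESeq2 and limma-voom too), beside 1.7%, 0.17% and 2.16% of all rows. The median log2 fold change of the rows tested was 0.083 in KO, -0.19 in Over and -0.31 between the controls, where the medians of all rows were 0.0067, -0.0012 and -0.0046. The comparison between the controls shares the KO-con libraries with the KO comparison and the Over-con libraries with the Over comparison. Whether the 3 libraries of a group were separate cultures is not stated, so the p-values measure the spread between these libraries, which may be technical.

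**Figure D3:**
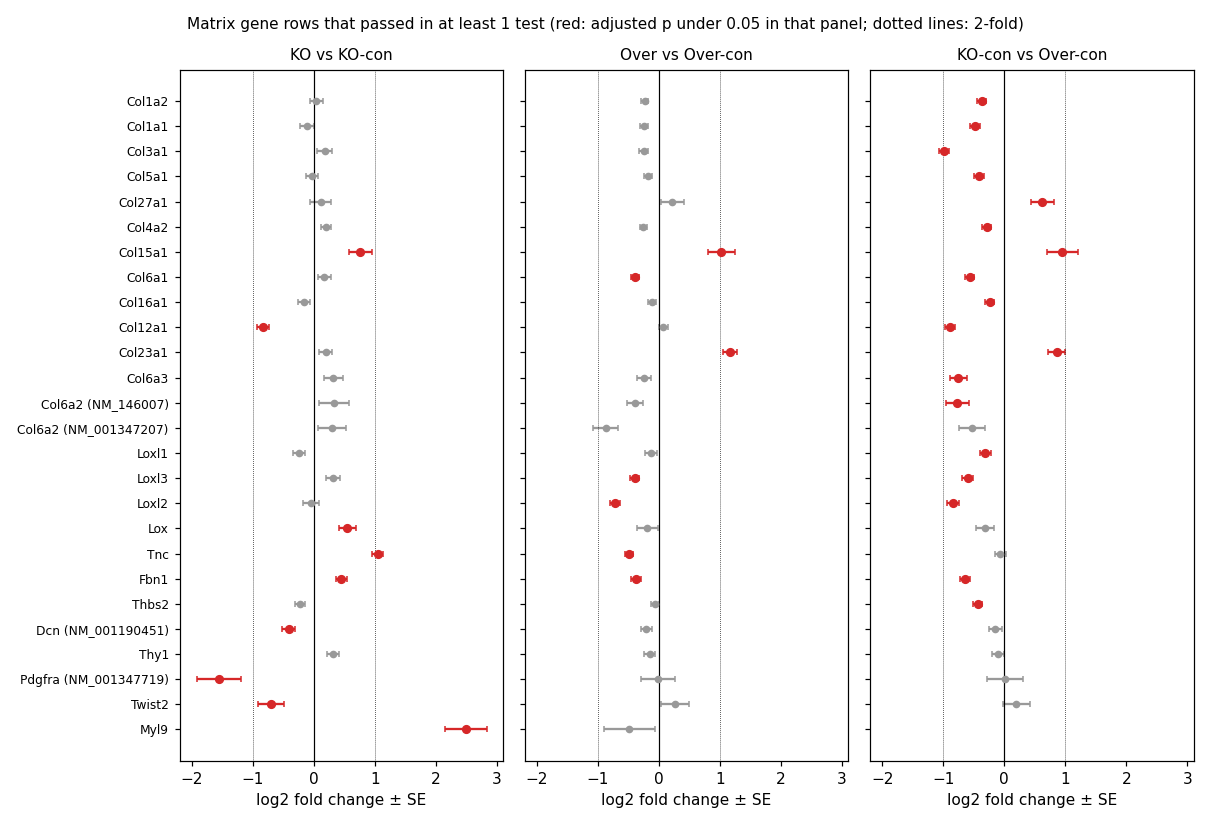
Log2 fold change ± SE (horizontal axis) of the 26 rows that passed in at least 1 test, in the 3 comparisons (panels). Red points have an adjusted p under 0.05 in that panel, and in the right panel 15 of them lie on the negative side and 3 on the positive side.

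The 7 fibrillar collagens differed mainly between the 2 controls, where 4 were lower and 1 was higher in KO-con than in Over-con. In KO 0 of the 7 passed with edgeR, DESeq2 or limma-voom, and 0 had an unadjusted p under 0.05. In Over 0 passed with edgeR, while 4 were lower at an unadjusted p under 0.05, and DESeq2 found 2 of them lower and limma-voom 1. *Col3a1*, the type III collagen of soft tissue, had the largest such difference. It was at 126, 113 and 129 CPM in KO-con, 149, 161 and 104 CPM in KO, 222, 263 and 250.4 CPM in Over-con and 187, 206 and 221 CPM in Over. Over lay between the controls without overlap with either. On the log2 scale the change was -0.99 (SE 0.0828, adjusted p = 3.58e-08) between the controls, 0.18 (SE 0.122, adjusted p = 0.399) in KO and -0.25 (SE 0.0776, adjusted p = 0.138) in Over. *Col1a1*, the main chain of type I collagen, was at 333, 303 and 363 CPM in KO-con, 309.6, 369 and 239 CPM in KO, 424, 461 and 508 CPM in Over-con and 390.2, 403 and 375 CPM in Over. Every Over-con library was above every library of the other 3 groups. The controls differed by a log2 fold change of -0.47 (SE 0.0819, adjusted p = 0.000326), and the values were -0.12 (SE 0.118, adjusted p = 0.6) in KO and -0.25 (SE 0.0695, adjusted p = 0.099) in Over. *Col1a2*, the partner chain, was at 511, 481 and 579.8 CPM in KO-con, 546, 623 and 441 CPM in KO, 646, 694 and 703 CPM in Over-con and 565, 585 and 576 CPM in Over. Again every Over-con library was above the other 9. It differed by -0.37 (SE 0.0772, adjusted p = 0.00186) on the log2 scale between the controls, while KO gave 0.042 (SE 0.105, adjusted p = 0.855) and Over -0.24 (SE 0.0597, adjusted p = 0.0644).

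*Col5a1*, a chain of the type V collagen that nucleates fibrils, was at 127, 115 and 133 CPM in KO-con, 133, 132 and 99.7 CPM in KO, 164, 163 and 175 CPM in Over-con and 152, 144 and 143 CPM in Over. The 3 Over-con libraries were above all others here too. As log2 fold changes, the values were -0.42 (SE 0.0779, adjusted p = 0.000682) between the controls, -0.031 (SE 0.0999, adjusted p = 0.886) in KO and -0.18 (SE 0.0642, adjusted p = 0.204) in Over. *Col27a1*, a fibrillar collagen of cartilage, went the other way and was at 7.96, 8.23 and 7.39 CPM in KO-con, 8.52, 7.20 and 9.80 CPM in KO, 5.12, 5.63 and 4.85 CPM in Over-con and 5.83, 5.59 and 6.52 CPM in Over. Every KO-con and KO library lay above every Over-con and Over library. The difference between the controls was 0.62 (SE 0.189, adjusted p = 0.0284), with 0.12 (SE 0.171, adjusted p = 0.74) in KO and 0.22 (SE 0.189, adjusted p = 0.695) in Over. It was lost with DESeq2 and without KO-con replicate 1, KO-con replicate 2, Over-con replicate 1 or Over-con replicate 3 (adjusted p from 0.0528 to 0.0986). *Col5a2* ranged from 147 to 178 CPM and *Col11a1* from 2.99 to 7.57 CPM over the 12 libraries, and neither passed in any test.

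**Figure D4:**
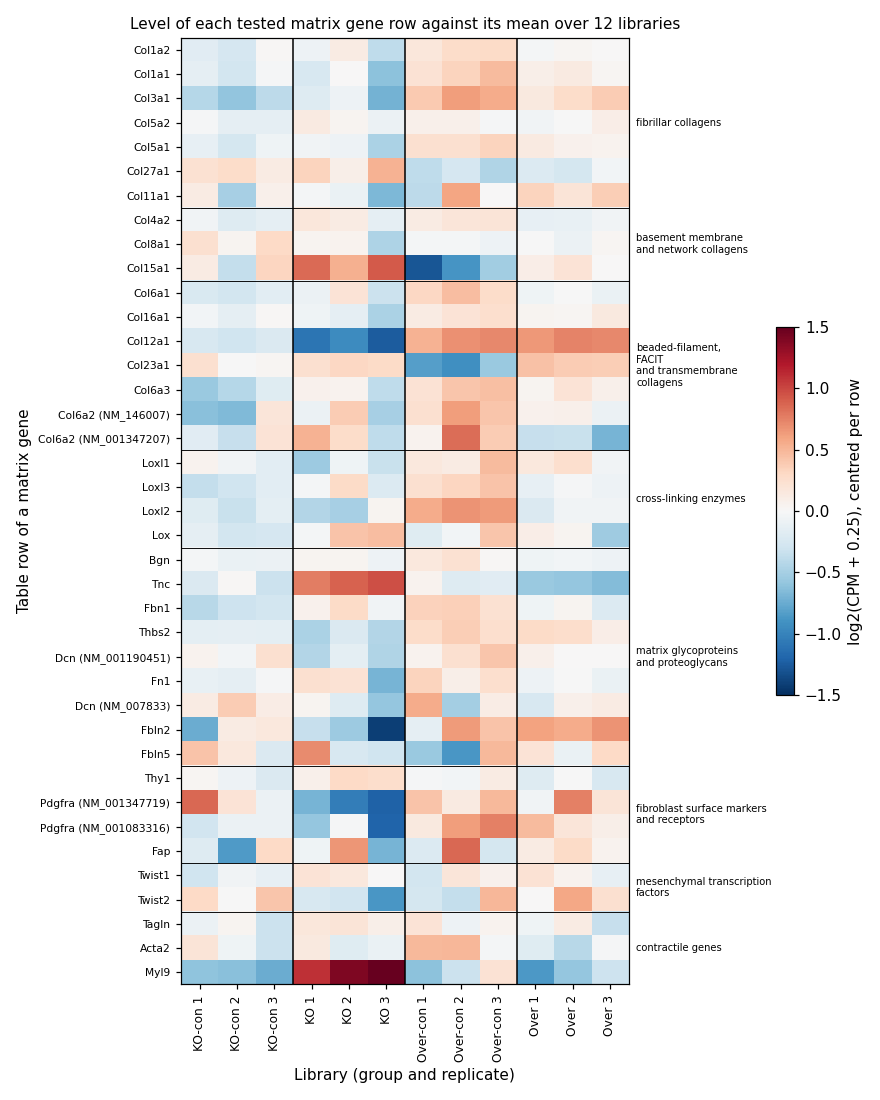
Level of each of the 39 tested rows (vertical axis, grouped by role) in each library (horizontal axis), as log2(CPM + 0.25) minus its mean over the 12 libraries. Red is above and blue below that mean; *Tnc* and *Myl9* are red in the 3 KO libraries, *Col12a1* is blue there, and *Col15a1* and *Col23a1* are blue in the 3 Over-con libraries.

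Among the basement membrane and network collagens, *Col15a1* was the one that changed in both lines. It encodes a collagen of basement membrane zones, on chr4:47221033-47326039 (mm9, plus strand), and was at 6.93, 4.92 and 8.0 CPM in KO-con, 11.6, 9.37 and 12.3 CPM in KO, 2.46, 3.34 and 4.37 CPM in Over-con and 6.85, 7.35 and 6.42 CPM in Over. KO lay above KO-con and Over above Over-con without overlap, and Over lay within the range of KO-con. Its log2 fold change was 0.77 (SE 0.192, adjusted p = 0.0161) in KO, 1.02 (SE 0.225, adjusted p = 0.0321) in Over and 0.95 (SE 0.254, adjusted p = 0.0133) between the controls. The Over result was lost when any of the 6 libraries except Over-con replicate 3 was left out, with edgeR's adjusted p from 0.0766 to 0.173. It was also lost with the replicate number as a block, and with KO-con as the control its adjusted p was 0.803. The KO result was lost without KO-con replicate 1 or 2, and the difference between the controls without KO-con replicate 1, KO-con replicate 3 or Over-con replicate 1. *Col4a2* was at 163, 149 and 155 CPM in KO-con, 191, 185 and 155 CPM in KO, 185, 193 and 195 CPM in Over-con and 156, 157 and 164 CPM in Over. Over-con and the first 2 KO libraries were highest. Between the controls its log2 fold change was -0.29 (SE 0.0732, adjusted p = 0.0093), in KO 0.19 (SE 0.0817, adjusted p = 0.149) and in Over -0.26 (SE 0.0625, adjusted p = 0.0525). The first of these was lost without KO-con replicate 2 (edgeR's adjusted p = 0.0763). *Col8a1*, a short-chain collagen of vessel walls, ranged from 37.2 to 63.5 CPM and passed in no test.

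Of the collagens that passed, *Col12a1* had the largest log2 fold change in KO and *Col23a1* in Over. *Col12a1*, on chr9:79446798-79566638 (mm9, minus strand), encodes a collagen on the surface of fibrils and was at 63.5, 60.6 and 64.3 CPM in KO-con, 34.9, 38.8 and 31.3 CPM in KO, 107, 121 and 124 CPM in Over-con and 118, 126 and 123 CPM in Over. KO was lowest, KO-con intermediate, and Over-con and Over overlapped. For *Col12a1* the log2 fold change was -0.83 (SE 0.0956, adjusted p = 3.08e-05) in KO, 0.072 (SE 0.0725, adjusted p = 0.742) in Over and -0.89 (SE 0.0840, adjusted p = 1.88e-07) between the controls. With Over-con as the control of KO it was -1.74 (adjusted p = 1.36e-07). *Col23a1*, on chr11:51103422-51397420 (mm9, plus strand), encodes a transmembrane collagen and was at 26.0, 21.8 and 22.3 CPM in KO-con, 25.9, 27.2 and 26.7 CPM in KO, 12.2, 11.4 and 14.8 CPM in Over-con and 29.8, 28.6 and 28.3 CPM in Over. Here Over-con stood apart from the other 3 groups. *Col23a1* had a log2 fold change of 1.16 (SE 0.117, adjusted p = 3.98e-05) in Over and 0.86 (SE 0.136, adjusted p = 0.000128) between the controls, and 0.20 (SE 0.109, adjusted p = 0.285) in KO. With KO-con as the control of Over it was 0.31 (adjusted p = 0.019).

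Type VI collagen forms beaded filaments around cells and is built from 3 chains. *Col6a1* was at 242, 235 and 255 CPM in KO-con, 266, 326 and 227 CPM in KO, 353, 390.5 and 343 CPM in Over-con and 272, 284 and 264 CPM in Over. Every Over and every KO-con library lay below Over-con. *Col6a1* had a log2 fold change of -0.40 (SE 0.0660, adjusted p = 0.00491) in Over, 0.17 (SE 0.102, adjusted p = 0.317) in KO and -0.56 (SE 0.0739, adjusted p = 1.38e-05) between the controls. The Over result was lost without Over replicate 1 or 3 (edgeR's adjusted p = 0.0505 and 0.0605), and with KO-con as the control its sign turned, to 0.17 (adjusted p = 0.0177). *Col6a3* was at 12.5, 13.7 and 16.2 CPM in KO-con, 19.4, 19.2 and 14.2 CPM in KO, 21.5, 24.8 and 25.4 CPM in Over-con and 19.0, 21.4 and 19.6 CPM in Over. The 3 Over-con libraries were above the other 9. The controls differed by -0.75 (SE 0.134, adjusted p = 0.000412), while KO gave 0.32 (SE 0.152, adjusted p = 0.201) and Over -0.25 (SE 0.111, adjusted p = 0.366).

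*Col6a2* is listed with 2 rows, between which the counting could split its reads. The row NM_146007 was at 7.86, 7.70 and 13.9 CPM in KO-con, 11.5, 16 and 8.62 CPM in KO, 14.6, 19.2 and 16.5 CPM in Over-con and 12.9, 12.9 and 11.5 CPM in Over. The row NM_001347207 was at 6.10, 5.37 and 8.0 CPM in KO-con, 10.0, 8.41 and 5.26 CPM in KO, 7.17, 12.5 and 9.02 CPM in Over-con and 5.37, 5.44 and 4.17 CPM in Over. In both rows Over-con had the highest mean, and the KO-con and KO ranges overlapped. The first row differed between the controls, with a log2 fold change of -0.77 (SE 0.193, adjusted p = 0.00833), and gave 0.33 (SE 0.242, adjusted p = 0.437) in KO and -0.40 (SE 0.134, adjusted p = 0.184) in Over. That difference was lost without KO-con replicate 1 or 2. For the second row the values were -0.53 (SE 0.214, adjusted p = 0.103), 0.29 (SE 0.231, adjusted p = 0.476) and -0.88 (SE 0.212, adjusted p = 0.0502), none of which passed.

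*Col16a1*, which associates with fibrils, was at 103, 96.6 and 107 CPM in KO-con, 101, 96.5 and 76.2 CPM in KO, 115, 123 and 127 CPM in Over-con and 109, 108 and 117 CPM in Over. Over-con lay above KO-con without overlap. The difference was -0.24 (SE 0.0789, adjusted p = 0.04), with -0.15 (SE 0.0966, adjusted p = 0.346) in KO and -0.12 (SE 0.0694, adjusted p = 0.52) in Over. It fell short of the threshold in 9 of its 15 alternatives, with adjusted p from 0.0513 to 0.209: DESeq2, no filter, all 12 libraries in 1 fit, and each of the 6 libraries left out.

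Of the 4 lysyl oxidases, *Loxl2* and *Loxl3* were lower in Over and in KO-con than in Over-con, and *Lox* was higher in KO. *Loxl2*, which cross-links type IV collagen, was at 38.3, 34.5 and 39.0 CPM in KO-con, 31.8, 30.6 and 44.7 CPM in KO, 64.1, 69.5 and 67.6 CPM in Over-con and 37.1, 41.9 and 41.6 CPM in Over. Each Over-con library was above every library of the other groups. *Loxl2* had a log2 fold change of -0.73 (SE 0.0838, adjusted p = 0.000151) in Over, -0.84 (SE 0.0919, adjusted p = 1.37e-06) between the controls and -0.048 (SE 0.130, adjusted p = 0.867) in KO. With KO-con as the control of Over it was 0.12 (adjusted p = 0.366). *Loxl3* was at 53.1, 55.7 and 61.2 CPM in KO-con, 66.7, 83.3 and 59.2 CPM in KO, 81.0, 85.2 and 92.2 CPM in Over-con and 62.5, 67.4 and 64.9 CPM in Over. Over lay below Over-con without overlap, whereas KO and KO-con overlapped. The values were -0.40 (SE 0.0765, adjusted p = 0.014) in Over, -0.60 (SE 0.0888, adjusted p = 5.8e-05) between the controls and 0.31 (SE 0.113, adjusted p = 0.089) in KO. The Over result of *Loxl3* was lost with all 12 libraries in 1 fit and with the replicate number as a block. It was also lost without any 1 of the 3 Over libraries (edgeR's adjusted p from 0.0686 to 0.135). With KO-con as the control its sign turned, to 0.21 (adjusted p = 0.0443). *Lox* is listed with 3 rows, of which NM_010728 held nearly all its counts and was at 19.1, 17.4 and 17.6 CPM in KO-con, 20.6, 28.4 and 29.2 CPM in KO, 18.6, 20.4 and 28.2 CPM in Over-con and 22.6, 21.7 and 14.4 CPM in Over. All 3 KO libraries were above those of KO-con. For *Lox* the log2 fold change was 0.55 (SE 0.137, adjusted p = 0.0157) in KO, -0.19 (SE 0.171, adjusted p = 0.704) in Over and -0.32 (SE 0.145, adjusted p = 0.154) between the controls, and against Over-con the KO value was 0.22 (adjusted p = 0.575). The KO result was also lost without KO-con replicate 2, KO-con replicate 3 or KO replicate 2 (edgeR's adjusted p from 0.0603 to 0.0859). *Loxl1*, an enzyme of elastic fibres, was at 126, 117 and 108 CPM in KO-con, 82.8, 116 and 96.3 CPM in KO, 135, 133 and 169 CPM in Over-con and 136, 145 and 117 CPM in Over. The 3 KO-con libraries were below those of Over-con. The difference was -0.31 (SE 0.0924, adjusted p = 0.0248), with -0.24 (SE 0.104, adjusted p = 0.16) in KO and -0.13 (SE 0.0958, adjusted p = 0.609) in Over. It was lost with all 12 libraries in 1 fit and without KO-con replicate 2, KO-con replicate 3 or Over-con replicate 3 (edgeR's adjusted p from 0.0763 to 0.137), and the value without Over-con replicate 3 was -0.19 (adjusted p = 0.0799).

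*Tnc* changed in opposite directions in the 2 lines. The gene lies on chr4:63620819-63681760 (mm9, minus strand), and its level was 418, 492 and 387 CPM in KO-con, 828, 895 and 951 CPM in KO, 505, 425 and 432 CPM in Over-con and 329, 325 and 309.5 CPM in Over. Every KO library was above every other library, and the 3 Over libraries were below all others. The means were 432 ± 53.8 CPM (SD, n = 3) in KO-con and 891 ± 61.9 CPM in KO, and 454 ± 44.4 CPM in Over-con and 321 ± 10.1 CPM in Over. The log2 fold change was 1.05 (SE 0.0895, adjusted p = 1.34e-06) in KO and -0.49 (SE 0.0706, adjusted p = 0.00125) in Over, and the controls did not pass against each other, with -0.063 (SE 0.0879, adjusted p = 0.693). Both the KO and the Over result stayed past an adjusted p of 0.05 with the same sign in all 16 alternatives. With the other control the values were 0.97 in KO, which is under the fold threshold for a call, and -0.43 in Over.

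*Fbn1* encodes fibrillin-1, the core of microfibrils, on chr2:125126330-125333729 (mm9, minus strand). It was at 91.4, 98.6 and 101 CPM in KO-con, 128, 149 and 118 CPM in KO, 156, 157 and 143 CPM in Over-con and 117, 126 and 106 CPM in Over. KO was above KO-con and Over below Over-con without overlap, and 2 of the 3 KO libraries lay between the ranges of the 2 controls. For *Fbn1* the log2 fold change was 0.45 (SE 0.0889, adjusted p = 0.00321) in KO, -0.38 (SE 0.0750, adjusted p = 0.0177) in Over and -0.64 (SE 0.0787, adjusted p = 6.47e-06) between the controls. With the other control the sign turned in both lines, to -0.20 (adjusted p = 0.264) in KO and 0.27 (adjusted p = 0.00392) in Over. The Over result was also lost without Over replicate 1, Over replicate 3, Over-con replicate 1 or Over-con replicate 2 (edgeR's adjusted p from 0.0589 to 0.145).

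Decorin was lower in KO, thrombospondin-2 was lower in KO-con than in Over-con, and biglycan passed in no test. *Dcn*, a proteoglycan that binds collagen fibrils, is listed with 2 rows, and NM_001190451 held most of its counts, at 46.8, 43.5 and 52.9 CPM in KO-con, 33.1, 40.7 and 32.8 CPM in KO, 46.5, 53.0 and 59.9 CPM in Over-con and 47.3, 45.2 and 45.1 CPM in Over. KO lay below KO-con in every library. The log2 fold change was -0.41 (SE 0.110, adjusted p = 0.0224) in KO, -0.21 (SE 0.0953, adjusted p = 0.379) in Over and -0.15 (SE 0.106, adjusted p = 0.38) between the controls, and the second row, NM_007833, gave -0.48 (SE 0.259, adjusted p = 0.27) in KO. The KO result of the first row was lost without KO-con replicate 1, KO-con replicate 3 or KO replicate 3.

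*Thbs2*, a matricellular glycoprotein, was at 97.8, 98.3 and 97.2 CPM in KO-con, 77.9, 92.7 and 79.4 CPM in KO, 131, 139.6 and 128 CPM in Over-con and 132, 130.0 and 116 CPM in Over. KO was below KO-con in every library and the controls were apart. The log2 fold change was -0.43 (SE 0.0763, adjusted p = 0.000379) between the controls, -0.22 (SE 0.0828, adjusted p = 0.099) in KO and -0.066 (SE 0.0718, adjusted p = 0.76) in Over. *Bgn* was at 679, 646 and 655 CPM in KO-con, 712, 715 and 659.9 CPM in KO, 776, 812 and 701 CPM in Over-con and 663, 676 and 658 CPM in Over. Its log2 fold change was 0.084 (adjusted p = 0.491) in KO, -0.19 (adjusted p = 0.195) in Over and -0.20 (adjusted p = 0.0641) between the controls. *Fn1* and the elastic fibre proteins *Fbln2* and *Fbln5*, the latter pair at a mean of 1.52 and 1.24 CPM in their higher rows, passed in no test.

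**Figure D5:**
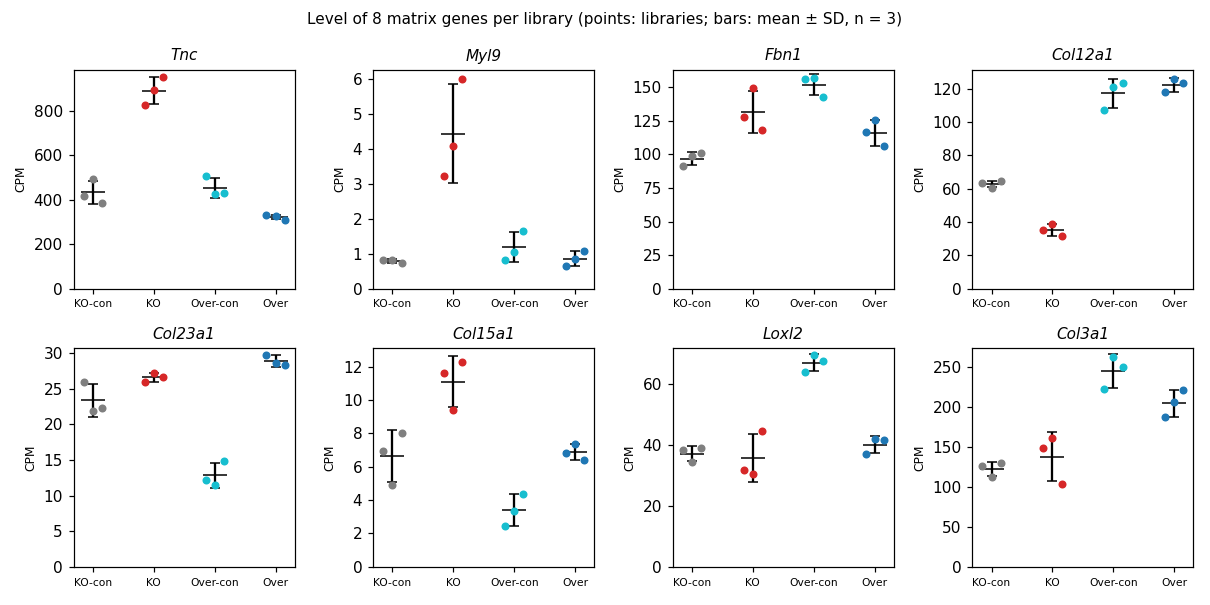
Level (vertical axis, CPM, from 0) of 8 genes in the 3 libraries of each group (horizontal axis). Points are libraries and bars are the mean ± SD; *Tnc* and *Myl9* are highest in KO, *Col12a1* lowest in KO, and *Loxl2* highest and *Col23a1* lowest in Over-con.

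Of the fibroblast surface proteins, *Thy1*, a glycoprotein of fibroblasts and some stem cells, was at 40.2, 37.3 and 33.8 CPM in KO-con, 41.6, 48.6 and 47.5 CPM in KO, 39.1, 38.2 and 43.1 CPM in Over-con and 34.6, 39.4 and 33.5 CPM in Over. KO lay above KO-con in every library, by a log2 fold change of 0.31 (SE 0.100, adjusted p = 0.0529), which did not pass, and Over gave -0.16 (SE 0.0956, adjusted p = 0.53) and the controls -0.11 (SE 0.101, adjusted p = 0.539). *Pdgfra*, the receptor for platelet-derived growth factor of mesenchymal cells, is listed with 5 rows, 2 of which were at 0. Its row NM_001347719 was at 4.24, 2.60 and 2.06 CPM in KO-con, 1.27, 0.954 and 0.817 CPM in KO, 3.07, 2.46 and 3.20 CPM in Over-con and 2.13, 3.91 and 2.57 CPM in Over. Each KO library was below every other library. For this row the log2 fold change was -1.56 (SE 0.362, adjusted p = 0.00998) in KO, -0.018 (SE 0.281, adjusted p = 0.984) in Over and 0.016 (SE 0.298, adjusted p = 0.98) between the controls. The row NM_001083316, with the most other counts of the gene, was at 1.76, 2.06 and 2.06 CPM in KO-con and 1.38, 2.17 and 0.817 in KO, with -0.41 (SE 0.366, adjusted p = 0.543). Both rows had only 9 counts in KO replicate 3. The first row's result was lost without KO-con replicate 1 or KO replicate 2. Over its alternatives the KO log2 fold change ran from -1.74 to -0.96, and the latter is under the fold threshold for a call. With all rows of *Pdgfra* summed, the mean was 4.99 ± 1.01 CPM (SD, n = 3) in KO-con and 2.56 ± 0.849 CPM in KO.

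*Twist1* and *Twist2* encode transcription factors of the mesenchyme. *Twist2* was at 8.48, 6.80 and 9.21 CPM in KO-con, 5.76, 5.55 and 3.63 CPM in KO, 5.64, 5.28 and 9.80 CPM in Over-con and 6.85, 10.3 and 8.13 CPM in Over. KO was below KO-con in every library, while Over-con and Over overlapped. The log2 fold change was -0.70 (SE 0.210, adjusted p = 0.0391) in KO, 0.27 (SE 0.228, adjusted p = 0.689) in Over and 0.20 (SE 0.220, adjusted p = 0.605) between the controls. The KO result fell short of an adjusted p of 0.05 under 9 of its 16 alternatives, DESeq2, library totals and all 12 libraries in 1 fit among them, with adjusted p from 0.0567 to 0.339. Leaving out KO-con replicate 1, KO-con replicate 3, KO replicate 2 or KO replicate 3 was enough. *Twist1* ranged from 11.8 to 16.9 CPM and passed in no test.

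Contractile genes mark smooth muscle cells and activated fibroblasts. *Myl9*, a regulatory light chain of myosin on chr2:156601156-156607394 (mm9, plus strand), was at 0.827, 0.806 and 0.727 CPM in KO-con, 3.23, 4.08 and 5.99 CPM in KO, 0.820, 1.06 and 1.65 CPM in Over-con and 0.648, 0.842 and 1.07 CPM in Over, or 8, 9 and 6 counts in KO-con and 28, 47 and 66 in KO. Every KO library was above the other 9. For *Myl9* the log2 fold change was 2.49 (SE 0.341, adjusted p = 0.000184) in KO and -0.49 (SE 0.417, adjusted p = 0.686) in Over, and the row had too few counts to be tested between the controls. With Over-con as the control of KO it was 1.89 (adjusted p = 0.00352). Every KO-con library lay under the filter's minimum count of 10, so the row entered the KO test through its high KO libraries alone. That selection favours a higher level in KO, and the KO value of *Myl9* is read as a description. The other 2 contractile genes did not pass. *Acta2*, smooth muscle actin, gave 0.0018 (SE 0.220, adjusted p = 0.997) in KO from levels of 5.48, 4.56 and 3.76 CPM in KO-con and 5.30, 4.16 and 4.45 in KO. *Tagln*, an actin-binding protein, gave 0.28 (SE 0.176, adjusted p = 0.356) from 6.31, 6.89 and 5.33 CPM in KO-con and 7.60, 7.72 and 7.17 in KO, ranges that did not overlap.

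Whether the 2 lines differed in their effects was tested directly, as the KO log2 fold change minus the Over log2 fold change with all 12 libraries in 1 fit. Of 39 rows, 9 had a positive difference, 3 a negative one and 27 did not pass, where 4.12% and 4.52% of all 9903 rows did. These are log2 values with edgeR's adjusted p. The positive differences were those of *Myl9* (2.98, SE 0.548, adjusted p = 0.00146), *Tnc* (1.54, SE 0.121, adjusted p = 6.35e-08), *Col6a2* NM_001347207 (1.17, SE 0.336, adjusted p = 0.0345), *Fbn1* (0.83, SE 0.120, adjusted p = 0.000148), *Loxl3* (0.71, SE 0.144, adjusted p = 0.00336), *Loxl2* (0.68, SE 0.163, adjusted p = 0.0122), *Col6a1* (0.57, SE 0.132, adjusted p = 0.0102), *Thy1* (0.47, SE 0.138, adjusted p = 0.0386) and *Col4a2* (0.45, SE 0.105, adjusted p = 0.0104). The differences of *Col6a2* NM_001347207 and *Thy1* fell short of the threshold in 10 and 9 of their 17 alternatives. For *Tnc* and *Fbn1* both single effects had passed, in opposite directions. The negative ones were those of *Pdgfra* NM_001347719 (-1.54, SE 0.465, adjusted p = 0.0436), *Col23a1* (-0.96, SE 0.156, adjusted p = 0.000421) and *Col12a1* (-0.91, SE 0.116, adjusted p = 4.08e-05), of which that of *Pdgfra* fell short in 11 of 16 alternatives. *Col15a1*, higher in both lines, did not pass here, with -0.26 (SE 0.301, adjusted p = 0.69). The 7 fibrillar collagens did not pass either, with *Col3a1* at 0.43 (SE 0.164, adjusted p = 0.118) and *Col1a1* at 0.13 (SE 0.155, adjusted p = 0.694). Rows called in either direction were 4, beside 1.9% of all rows.

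Within KO, the third library stood below the other 2 for most of these genes, which was noticed after the values were seen. It was the lowest of the 3 in 28 of 39 rows (71.8%), against 33.7% of the 9242 rows with a mean of at least 1 CPM. In the other groups the library most often lowest was KO-con replicate 2 (22 of 39 rows, 56.4%, against 34.9%), Over-con replicate 1 (19 rows, 48.7%, against 27.0%) and Over replicate 3 (20 rows, 51.3%, against 37.0%). For *Col1a1*, *Col1a2*, *Col3a1*, *Col5a1* and *Fn1* it was the lowest KO library, while for *Tnc*, *Lox* and *Myl9* it was the highest. Without KO replicate 3, 9 rows were higher and 2 lower in KO, and 14 were higher in the difference between the lines. Over the whole table, those refits called 147 rows in KO in place of 161, and 186 in the difference in place of 188. *Col3a1*, *Col4a2*, *Col6a1* and *Loxl3* then passed in KO with log2 fold changes of 0.34, 0.27, 0.28 and 0.41 and adjusted p of 0.011, 0.0266, 0.0383 and 0.0132. In KO, 1 row was lower without KO-con replicate 1 and 2 were lower without KO-con replicate 3, and 3 rows were higher without KO-con replicate 2. Without Over-con replicate 3, the rows lower in Over numbered 10 and *Col1a2* (-0.21, adjusted p = 0.0137) was one of them, and 73 rows of the table were called in place of 16. Without Over replicate 1 or 3, 2 of the genes' rows were lower in Over. For all rows, only those called were counted in these refits, so no share of all rows higher or lower stands beside the genes' counts.

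Genes that make, hold and sense this matrix were read from 5 lists. Over all rows tested, 5.83% were higher and 5.96% lower in KO, 0.766% and 0.883% in Over, and 8.08% and 8.19% between the controls. No list was tested as a set against these shares. Of the enzymes and chaperones that fold and process collagen (27 genes, 13 to 15 rows tested in a comparison), the most counts fell on *P4hb*, a subunit of prolyl 4-hydroxylase, at 3101 CPM and *Mia3*, which exports procollagen, at 579 CPM. In KO, 0 rows were higher and 1 was lower, that of *P4hb* with -0.26 (adjusted p = 0.0347), and in Over 0 passed with edgeR, DESeq2 or limma-voom, with 5 lower at edgeR's unadjusted p under 0.05. Between the controls 1 was higher and 3 were lower, with *Tll1*, a procollagen protease, called at -1.18 (adjusted p = 0.042). In the difference between the lines, *P4ha3*, another prolyl 4-hydroxylase subunit at 0.920 CPM, was called at -2.53 (adjusted p = 0.0195). Its mean lay near the floor of 0.233 to 0.535 CPM, so depth limits the size of this value. *Serpinh1*, the collagen chaperone HSP47, is listed with 4 rows and had 93 counts in the 12 libraries.

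Laminins and other basement membrane proteins (19 genes, 12 rows tested) included genes with high counts. *Lama5*, a laminin chain, was at 4423 CPM and *Nid1* (nidogen, a linker of laminin and collagen IV) at 2417 CPM. In KO 1 row was higher and 1 lower, in Over 0 and 2, and between the controls 1 and 4. The shares of all rows were 5.83% and 5.96% in KO, 0.766% and 0.883% in Over, and 8.08% and 8.19% between the controls. *Lama5* gave -0.64 (adjusted p = 7.76e-05) in KO and 0.51 (adjusted p = 0.000459) between the controls. Of the receptors for collagen and matrix (26 genes, 15 rows tested), 1 was higher and 3 were lower in KO, 1 and 1 in Over, and 1 and 5 between the controls. *Itgb1* at 907 CPM and the collagen receptor *Ddr2* at 633 CPM had the most counts. *Itgb3*, a subunit of vitronectin receptors, was called between the controls at -1.08 (adjusted p = 2.65e-09), and gave -0.68 (adjusted p = 0.000757) in KO and -0.44 (adjusted p = 0.00208) in Over.

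Transforming growth factor beta raises collagen synthesis in fibroblasts. Over all rows tested, 5.83% were higher and 5.96% lower in KO, and 8.08% and 8.19% between the controls. Of its ligands, receptors and targets (26 genes, 19 rows tested), 0 were higher and 4 lower in KO, and 3 were higher and 4 lower between the controls. In Over 0 passed with edgeR, DESeq2 or limma-voom, with 5 lower at edgeR's unadjusted p under 0.05. None was called in these comparisons. *Tgfbr3*, its coreceptor, at 469 CPM and *Tgfb1* at 248 CPM had the most counts, and *Tgfb1* was lower in KO, with a log2 fold change of -0.45 (adjusted p = 0.00101). Of other contractile genes and targets of serum response factor (23 genes, 17 rows tested), 1 was higher and 0 lower in KO, and 0 were higher and 3 lower between the controls. In Over 0 passed with edgeR, DESeq2 or limma-voom, with 4 lower at edgeR's unadjusted p under 0.05. The row called in KO was NM_001347100 of *Cald1*, which encodes the actin-binding protein caldesmon, with 1.09 (adjusted p = 0.00154). The other row tested, NM_145575, gave 0.29 (adjusted p = 0.27). *Myh9* at 2609 CPM and *Vim* at 1877 CPM had the most counts of that list, and *Srf* stood at 110.1 CPM.

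The remaining cell type lists had lower sums than the 43 genes. The 8 endothelial genes are listed with 20 rows, the 10 granulosa and theca genes with 16 and the 8 epithelial genes with 9. A low value or a 0 of a gene with several rows is again not read as low expression. The list of endothelial markers (8 genes, 5 of them at 0: *Cldn5*, *Erg*, *Emcn*, *Pecam1* and *Tek*) summed to 20.4 to 29.3 CPM in KO-con, 14.5 to 19.1 in KO, 17.3 to 30.7 in Over-con and 20.8 to 27.5 in Over, nearly all of it *Vwf*. The 10 granulosa and theca markers lay between 37.2 to 41.5 CPM in Over and 40.1 to 49.0 CPM in KO-con, led by *Inhba*, *Star* and *Inha*, with *Fshr*, *Foxl2*, *Cyp19a1* and *Nr5a1* at 0. Epithelial markers summed to at most 3.70 CPM in a library, led by *Cdh1*, *Krt7* and *Krt8*, with *Krt19* at 0. The 5 Y-linked genes were at 0 counts in all 12 libraries, and *Xist* reached at most 1.36 CPM.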

How the data were processed

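The 12 RNA-seq libraries came from KO, KO-con, Over and Over-con FGSCs (3 each), and the titles of the samples gave the group and the replicate number. Per the study's methods and the labels, total RNA was extracted with Trizol and made into stranded mRNA libraries, and the trimmed reads were aligned to mm9 with HISAT2. The authors deposited raw counts per RefSeq transcript, without normalization. The strand setting, the annotation release and the handling of reads shared between transcripts are not given in the sources used here, so reads of overlapping or antisense genes, and of several transcripts of a gene, may be lost or split. Symbols were found for 41186 of 41388 rows (99.5%) in RefSeq tables of GRCm38.p6. Gene positions and exon lengths came from GENCODE's mm9 annotation.

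The genes and lists were chosen with earlier results of these data known. Each comparison used the 6 libraries of its groups in edgeR 4.0.16 (TMM, filterByExpr, quasi-likelihood test), with Benjamini-Hochberg adjustment over all rows tested, and the difference between the KO and Over effects used all 12. Rows with an adjusted p under 0.05 passed, and those also more than 1 from 0 on the log2 scale were called, as in the study. Levels are CPM with TMM factors over all 12 libraries. Full values are given for every gene of the 43 that passed in at least 1 test, and for other lists the 2 or 3 most abundant genes, called genes (at most 4 in a list and comparison) and defining markers at 0. Values given beyond this rule (*Dazl*, *Serpinh1*, *Srf*, *Acta2*, *Tagln*, the second rows of *Dcn*, *Pdgfra* and *Cald1*, and single tests of *P4hb*, *Lama5*, *Itgb3*, *Tgfb1* and *Cpa3*) were chosen after they were seen. A gene that the rule names in another list is not reported here. Alternatives were DESeq2 1.42.0, limma-voom (limma 3.58.1), DESeq2 size factors, library totals, no filter, at least 10 counts in every library, counts summed per gene, all 12 libraries in 1 fit, a replicate block, each library left out, no fold threshold and the other control group. Simulated data had 100 rows changed 2-fold and 100 changed 4-fold, drawn from well-covered rows. The spread beyond counting error was set the same for all rows. Of the 100 rows changed 2-fold, 98 passed by adjusted p for KO, 99 for Over and 99 for the controls (9405, 9382 and 9305 rows). For the difference 95 passed (9774 rows). These runs gave 8, 14, 9 and 9 false calls. Changes in rows with few counts were not simulated.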

Additional observations from a re-analysis of the deposited data

Results flagged for a closer look

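For 12 rows the KO and Over effects differed by the test of the difference itself (edgeR's quasi-likelihood test over all 12 libraries, adjusted p under 0.05). The KO minus Over difference on the log2 scale was 2.98 for *Myl9*, 1.54 for *Tnc*, 1.17 for *Col6a2* NM_001347207, 0.83 for *Fbn1*, 0.71 for *Loxl3*, 0.68 for *Loxl2*, 0.57 for *Col6a1*, 0.47 for *Thy1* and 0.45 for *Col4a2*. It was -1.54 for *Pdgfra* NM_001347719, -0.96 for *Col23a1* and -0.91 for *Col12a1*. Since each effect is read against its own control, a distance between KO-con and Over-con enters these differences. Between the controls, *Loxl2* (-0.84), *Fbn1* (-0.64), *Loxl3* (-0.60), *Col6a1* (-0.56), *Col4a2* (-0.29), *Col12a1* (-0.89) and *Col23a1* (0.86) had passed, whereas *Tnc* (-0.063, adjusted p = 0.693) and *Thy1* (-0.11, adjusted p = 0.539) had not. The differences of *Col6a2* NM_001347207, *Pdgfra* NM_001347719 and *Thy1* fell short of the threshold in 10, 11 and 9 of their alternatives. Groups of 3 libraries were too small for the test of a single library standing apart.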

How the results depend on the processing

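Of 46 values of single rows that had passed, 26 stayed past the threshold with the same sign under every alternative that tested the row. Over all alternatives 92 of 726 recomputed values fell short and 5 turned sign. With at least 10 counts in every library, *Myl9* and *Pdgfra* NM_001347719 were not tested in KO or in the difference. Of 19 counts and ratios, recomputed 289 times, 232 were within 1.5 times the main count or 1 SD of the main ratio and 57 moved. For counts, at least 10 counts in every library gave 103 rows called in KO (161 in the main test), 1 of the 43 genes' rows called in KO (3) and 2 in the difference (4). Without a fold threshold 1115, 155 and 1516 rows passed in KO, Over and between the controls, with 9, 7 and 18 of the genes' rows. In Over, DESeq2 called 10 rows and found 9 of the genes' rows lower, and without a filter 34 rows were called. Limma-voom and counts summed per gene each called 2 rows in the difference, and library totals called 1 between the controls (*Col3a1*). The KO ratio of the summed level, 1.15, was 1.03 without *Tnc*, which was left out after seeing the data. The samples were treated as unpaired. Same-numbered libraries deviated with correlations of -0.0922 to -0.0487 in KO, -0.152 to -0.0090 in Over and -0.0064 to 0.0568 between the controls. Differently numbered libraries lay at -0.101 to 0.119 over the 3 comparisons. With 3 libraries per group, these values cannot show whether the numbers mark shared batches. With a replicate block Over had 8 rows called, 1 of the genes' rows called and 1 higher. The cause of these changes was not tested.

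With the other control group, KO had 5 of the genes' rows called and 11 lower, and Over had 156 rows called, 0 of the genes' rows called, 10 higher and 2 lower. The shares of all rows higher or lower with these controls were not counted. Signs turned in KO for *Col1a2* (-0.34), *Col3a1* (-0.83), *Col4a2* (-0.11), *Col6a1* (-0.40), *Col6a2* NM_001347207 (-0.25) and NM_146007 (-0.45), *Col6a3* (-0.44), *Fbn1* (-0.20) and *Loxl3* (-0.30). In Over they turned for *Col16a1* (0.13), *Col1a1* (0.23), *Col1a2* (0.14), *Col27a1* (-0.40), *Col3a1* (0.74), *Col4a2* (0.036), *Col5a1* (0.24), *Col6a1* (0.17), *Col6a2* NM_146007 (0.38), *Col6a3* (0.51), *Fbn1* (0.27), *Lox* (0.14), *Loxl1* (0.18), *Loxl2* (0.12), *Loxl3* (0.21) and *Thbs2* (0.37). Library totals turned *Col5a1* in KO (0.0097), and *Pdgfra* NM_001347719 between the controls turned with limma-voom (-0.047), library totals (-0.037) and counts summed per gene (-0.32).

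With each library left out in turn, the genes' rows in KO were 2 to 3 called, 3 to 9 higher and 1 to 5 lower. In Over they were 1 to 2 called, 1 to 2 higher and 2 to 10 lower, with 8 to 73 rows called over the whole table. Between the controls they were 0 to 2 called, 1 to 3 higher and 11 to 15 lower, and in the difference 2 to 6 called, 7 to 14 higher and 2 to 4 lower. Over the whole table, 134 to 173 rows were called in KO, 171 to 263 between the controls and 145 to 262 in the difference. The ratios of the summed level ran from 1.10 to 1.20 in KO, 0.836 to 0.853 in Over and 0.772 to 0.791 between the controls. Values near 0 that turned sign were, in KO, *Col1a1* (-0.28 to 0.029), *Col1a2* (-0.082 to 0.16), *Col27a1* (-0.012 to 0.23), *Col5a1* (-0.098 to 0.088) and *Loxl2* (-0.25 to 0.055). In Over they were *Lox* (-0.32 to 0.040) and *Pdgfra* NM_001347719 (-0.33 to 0.16), between the controls *Pdgfra* NM_001347719 (-0.32 to 0.20) and *Tnc* (-0.17 to 0.015), and in the difference *Col16a1* (-0.13 to 0.076) and *Col1a1* (-0.044 to 0.28). Depth limits *Myl9*, *Pdgfra*, *Twist2*, *Fap* and the fibulins, whose levels lay within a few CPM of the floor in some libraries.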
